A study of Mus musculus with 11 samples.

Results

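RNA-seq compared cDC1s of B16 melanoma that lacked XBP1 and the RNase domain of IRE1 with control cDC1s, in 3 double-deficient and 4 control pools out of 11 pools in the series. cDC1s are conventional type 1 dendritic cells, the subset that takes up tumor antigen and cross-presents it to CD8+ T cells. Double-deficient pools carried XBP1 fl/fl, IRE1 fl/fl and CD11c-CRE, and are called XBP1ΔDCIRE1truncDC. Control replicates 1 to 3 carried XBP1 fl/fl and control replicate 4 carried XBP1 fl/fl and IRE1 fl/fl, in both cases without Cre. The other 4 pools carried XBP1 fl/fl with CD11c-CRE (XBP1ΔDC) and entered the filter on low levels and the estimate of spread. Every pool came from several tumor-bearing mice on the C57BL/6 background, and cDC1s were sorted from the tumor. The study used mice of both sexes, and its methods do not give the sex of the mice in each pool. Itgax-Cre, which is driven by the CD11c promoter, is active in all CD11c-expressing cells and not in cDC1s alone, so other CD11c-expressing cells were targeted as well. Because all double-deficient pools carried Cre and no control did, and control replicates 1 to 3 lacked the floxed IRE1 allele, the effects of Cre, of that allele and of the deleted genes cannot be told apart. Members of the comparison were the 10951 of 24421 genes above 1 CPM (read counts scaled to a common library size) in at least 4 of the 11 pools.

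IRE1, encoded by Ern1, is an endoplasmic reticulum (ER) sensor whose RNase splices Xbp1 mRNA, and the spliced form encodes XBP1s, a transcription factor for genes that import, fold, glycosylate and export secretory proteins. The same RNase degrades a set of other mRNAs, a process termed RIDD, which is known to increase when XBP1 alone is lost. The other ER sensors are PERK, which acts through ATF4 on amino acid and translation genes, and ATF6, which acts mostly on ER chaperones. In the double-deficient cells XBP1 is lost and IRE1 keeps a truncated form without RNase activity.

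The total number of counts per pool was 22173308 to 26843486 in controls and 21089065 to 26019797 in double-deficient pools, and 12878 to 13055 and 12932 to 12957 genes had at least 1 count. Summed over 18 cDC1 markers, normalised CPM was 20185, 20516, 20823 and 22124 in the 4 control pools and 19492, 19192 and 18939 in the 3 double-deficient pools, and 1 of the 18 markers passed the test below. The defining markers Xcr1 and Clec9a were expressed in every pool, at 773, 875, 873 and 863 and 151, 123, 144 and 143 CPM in controls and 798, 944 and 870.2 and 133, 165 and 147 CPM in double-deficient pools. Their log2 fold changes were 0.04 and 0.08, and most of the list went the other way. Of the 18 markers, 12 had a log2 fold change below 0, down to -0.51 for Snx22 (adjusted p = 0.205, edgeR). At an unadjusted p under 0.05, 6 were lower and 1 was higher, against 5.44% and 5.73% of all genes. Summed neutrophil and B cell markers stayed under 3 CPM in all 7 pools. Melanoma cell markers differed within the control group, with a sum over 10 genes of 16.9, 12.9, 75.8 and 77.4 CPM in controls and 13.9, 16.7 and 12.3 CPM in double-deficient pools. Macrophage and monocyte markers (16 genes) summed to 1216 to 1794 CPM in controls and 1008 to 1858 CPM in double-deficient pools, cDC2 markers (11 genes) to 961 to 1161 and 874 to 1084 CPM, NK cell markers (8 genes) to 207 to 288 and 224 to 254 CPM, and T cell markers to 13.4 to 19.4 and 13.7 to 18.7 CPM. Keratinocyte and stromal markers stayed under 20 CPM. In such bulk samples fewer cells of a type and less RNA per cell cannot be told apart. Counts over whole genes do not measure the deleted exons, so they do not check the genotype. Xbp1 had 244, 249, 254 and 271 CPM in control and 212, 236 and 179 CPM in double-deficient pools (log2 fold change -0.28, adjusted p = 0.324), and Ern1 18.99, 14.1, 13.1 and 9.82 CPM and 21.4, 17.003 and 25.99 CPM (log2 fold change 0.62, adjusted p = 0.322).

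Double-deficient cDC1s had lower levels of secretory pathway genes and higher levels of a small set of stress genes. Of the 10951 genes, 23 (0.21%) were differentially expressed (DEGs) at an adjusted p under 0.05 with a fold change above 1.5. Among them 16 genes (0.146%) were lower and 7 (0.0639%) were higher in double-deficient cDC1s. Without the fold limit 32 genes (0.292%) were lower and the same number as before, 7 (0.0639%), were higher. At an unadjusted p under 0.05 there were 596 lower genes (5.44%) and 628 higher genes (5.73%). The 3 double-deficient pools lay below all 4 control pools for 636 genes (5.81%) and above them for 472 (4.31%), and this was so for all 39 genes past the adjusted threshold. The median log2 fold change over all genes was -0.003. Adjusted p comes from edgeR's quasi-likelihood test, adjusted by Benjamini-Hochberg over the 10951 genes. The test sets each difference against a spread between pools that was estimated over all 11 pools, the 4 XBP1-deficient pools included.

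**Figure D1:**
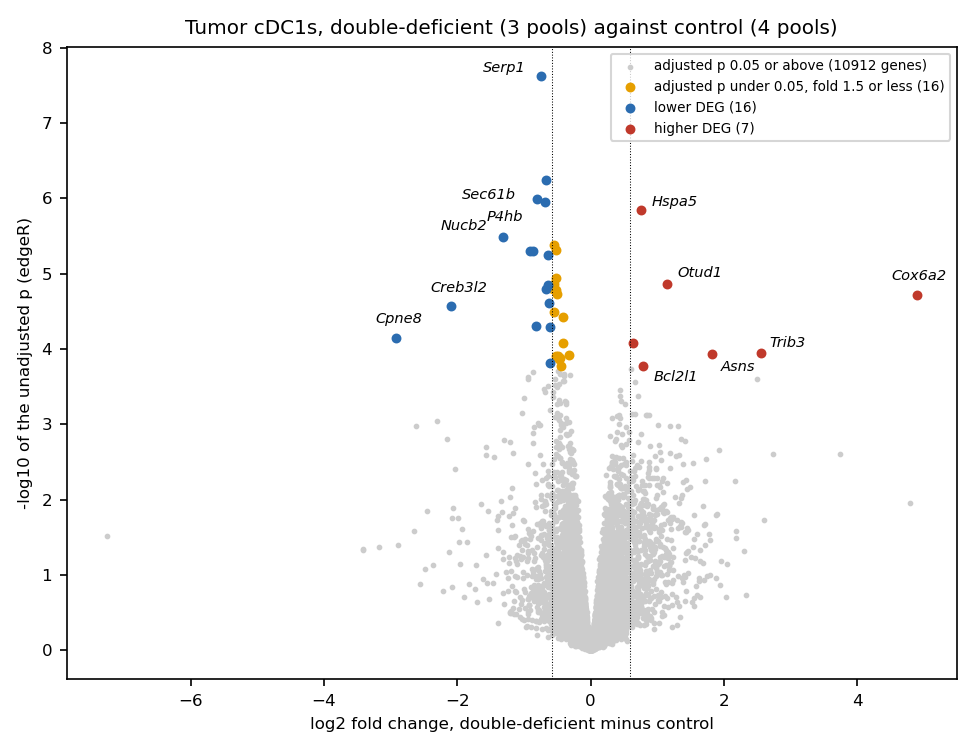
Each point is 1 of 10951 genes, with the log2 fold change of double-deficient against control cDC1s on the x axis and -log10 of the unadjusted p on the y axis. Blue marks the 16 lower DEGs, red the 7 higher DEGs and orange the 16 genes with an adjusted p under 0.05 and a smaller fold change, all of them lower. Dotted lines mark the 1.5-fold limits.

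Of the 32 lower genes, 24 belonged to lists of ER import, folding, glycosylation, degradation or vesicle transport, as did 13 of the 16 lower DEGs. No gene of the degradation list was among them. Of the 10951 genes tested, the lists held 29 for import, 29 for chaperones and 18 for disulfide bonds. They held 38 for glycosylation, 29 for degradation and 44 for vesicle transport. The lists were chosen with earlier results of these data known. The 8 others were Cpne8, Creb3l2, March1, Mgat2, Naaa, Prrc1, Slc39a7 and Snd1.

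Regulatory sequence upstream of 28 of the 39 genes was read from the RefSeq promoter table of GRCm38.p6, and 250 bases before each start were searched on both strands. The table held no entry for Sec61a1, Alg2, Prrc1, Ostc, Spcs3, Tram1, Tmed2, March1, Ssr2, Cox6a2 and Eif4ebp1. An ER stress element, CCAAT and CCACG separated by 9 bases, stood upstream of Hspa5, the gene of this set that rose with the smallest p. Its second form, ATTGG and CCACG separated by 1 base, stood upstream of the lower gene Nucb1. TGACGTGG, the XBP1 and ATF6 recognition letters, stood upstream of the lower genes Txndc11 and Txndc5, in 1 of 2 and 1 of 3 listed starts. TGATGNAA, the ATF4 composite element, stood upstream of Txndc5 and of the higher gene Asns. The windows are shown because XBP1, ATF6 and ATF4 are known to recognise these letters. Capitals mark the element, and all are read 5′ to 3′ along the strand of the gene. They come from chr2:34772019-34772048 (plus strand), chr7:45510409-45510528 (minus), chr16:11134616-11134645 (minus), chr13:38528034-38528063 (minus) and chr6:7693214-7693243 (minus). Upstream here refers to the RefSeq starts. By the GENCODE annotation used for the gene coordinates, all of these windows but that of Nucb1 lie within the gene.
Hspa5: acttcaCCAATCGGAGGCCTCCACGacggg
Nucb1: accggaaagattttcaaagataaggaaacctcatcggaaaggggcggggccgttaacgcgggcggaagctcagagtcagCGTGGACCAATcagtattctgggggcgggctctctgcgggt
Txndc11: tgaagtgtggcTGACGTGGagagtccgggt
Txndc5: ggcctcgccgcTGACGTGGcgctagccgcc
Asns: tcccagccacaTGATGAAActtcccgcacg
Over all 27025 symbols with an entry, the first element was found in 0.13%, the second in 0.037%, TGACGTGG in 0.603%, TGATGNAA in 3.91% and the 5 letters CCACG alone, which both ER stress elements contain, in 31.0%. Among the 23 lower genes with an entry, 14 (60.9%) held CCACG, as did 4 of the 5 higher genes. The 27025 symbols include genes that were not among those tested, so their shares are not those of the expressed genes. A symbol counted if any of its listed starts held the letters. Whether the lower genes differ from other expressed genes was not tested. A match describes the letters and not a bound site.

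Among the lists of functions, that of the ER translocon and the machinery that processes nascent chains held most lowered genes. Of 29 members tested, 10 were lower and none was higher past the adjusted threshold, 18 were lower at an unadjusted p under 0.05, and the median log2 fold change was -0.33. Serp1 encodes a small ER membrane protein that sits at the Sec61 channel, and lies at chr3:58519817-58525892 (mm10, minus strand). Its level was 798, 882, 814 and 844 CPM in control pools and 509, 493 and 499 CPM in double-deficient pools. The groups lay far apart, with the lowest control pool above the highest double-deficient pool, and the level was 59.9% of control (log2 fold change -0.74 ± 0.06 SE, adjusted p = 0.000259), the smallest p of all genes.

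Sec61a1 and Sec61b encode subunits of the channel itself. Sec61a1 had 543, 479, 468 and 428 CPM in controls and 299.5, 322 and 285 CPM in double-deficient pools (log2 fold change -0.67, adjusted p = 0.01002). Sec61b had 99.5, 102, 88.8 and 96.9 CPM and 54.4, 55.8 and 55.8 CPM, with the 3 double-deficient pools within a few percent of each other (log2 fold change -0.81, adjusted p = 0.00307). The translocon-associated protein complex assists the channel, and all 4 of its subunits were lower. Ssr3 had 311, 329, 346 and 299 CPM in controls and 204, 207 and 192 CPM in double-deficient pools (log2 fold change -0.67, adjusted p = 0.00307). The log2 fold changes of Ssr1, Ssr2 and Ssr4 were -0.52, -0.46 and -0.49, below the fold limit of a DEG (adjusted p = 0.00551, 0.0416 and 0.0396).

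Signal peptidase cleaves the signal sequence of imported proteins. Its subunit Spcs2 had 229, 227, 209.9 and 218 CPM in controls and 143, 164 and 124 CPM in double-deficient pools (log2 fold change -0.62, adjusted p = 0.0127). The subunit Spcs3 was lower by a similar amount (-0.56, adjusted p = 0.01002), and so was Tram1, a membrane protein next to the channel (-0.51, adjusted p = 0.0105). Sec11c, a catalytic subunit, had 123, 138, 116 and 129 and 101, 97.97 and 103 CPM and did not pass (-0.33, adjusted p = 0.111). Neither did Srprb, of the signal recognition particle receptor (-0.47, adjusted p = 0.0783), or the ribosome-binding Rrbp1 (-0.24, adjusted p = 0.305), whose groups overlapped.

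Genes of protein N-glycosylation were lower to a smaller extent. Of 38 tested, 4 were lower and none higher past the adjusted threshold, and the median was -0.15. Alg2, a mannosyltransferase that builds the lipid-linked sugar precursor, had 26.7, 27.2, 22.3 and 24.2 CPM in controls and 14.9, 13.4 and 14.6 CPM in double-deficient pools, with no overlap (log2 fold change -0.82, adjusted p = 0.0212). The other 3 encode parts of oligosaccharyltransferase, which transfers the precursor to nascent chains. They were the catalytic Stt3a (-0.52, adjusted p = 0.01002), Ddost (-0.53, adjusted p = 0.01002) and Ostc (-0.56, adjusted p = 0.01002). The subunits Rpn1, Dad1 and Krtcap2 had log2 fold changes of -0.46, -0.35 and -0.47 and did not pass (adjusted p = 0.0812, 0.133 and 0.161). Mgat2, a Golgi enzyme that extends N-glycans, fell outside the list and was lower (207, 192, 172 and 184 against 136, 139 and 133 CPM, log2 fold change -0.47, adjusted p = 0.0416).

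Alg2 and Sec61b, both lower DEGs, are neighbours on chromosome 4 that are transcribed away from each other, with 324 bases between them (Alg2 chr4:47465067-47474333, minus strand, and Sec61b chr4:47474658-47483242, plus strand, mm10). Both fell to a similar level, 56.8% and 57.2% of control. The stretch between them is shown from the Sec61b side, chr4:47474411-47474657, plus strand, as the upstream sequence that both genes share, and this shown part of the interval holds none of the 5 motifs searched.
Sec61b and Alg2: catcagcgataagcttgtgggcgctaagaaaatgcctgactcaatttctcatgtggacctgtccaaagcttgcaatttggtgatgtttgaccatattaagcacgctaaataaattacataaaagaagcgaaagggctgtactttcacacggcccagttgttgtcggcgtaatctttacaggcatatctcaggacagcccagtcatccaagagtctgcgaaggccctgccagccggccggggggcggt

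Genes of disulfide bond formation were among the lower ones. Of 18 genes for protein disulfide isomerases and ER oxidation, 3 were lower and none higher past the adjusted threshold, with a median of -0.22. P4hb, protein disulfide isomerase itself, had 942, 886, 915 and 879 CPM in controls and 570.4, 626 and 499 CPM in double-deficient pools (log2 fold change -0.68, adjusted p = 0.00307). Txndc11, a thioredoxin-domain protein of the ER, had 61.6, 59.5, 52.1 and 52.3 CPM and 28.7, 28.98 and 32.4 CPM, and every double-deficient pool lay well below the lowest control pool (log2 fold change -0.91, adjusted p = 0.00551). Txndc5 was the third (236, 272, 240.1 and 254 against 174, 150.1 and 171 CPM, log2 fold change -0.60, adjusted p = 0.0212). Pdia5 had the lowest log2 fold change of the list, -0.94, but varied between double-deficient pools at 63.6, 42.8 and 67.1 CPM and did not pass (adjusted p = 0.0551). The family did not move as one, as Pdia3 had 1358, 1452, 1371 and 1427 CPM in controls and 1739, 1997 and 1411 CPM in double-deficient pools, and its log2 fold change was 0.29 (adjusted p = 0.277).

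ER chaperones split in direction. Hspa5, which encodes the abundant ER chaperone BiP, rose from 1631, 1704, 1647 and 1718 CPM in the 4 control pools to 2739.8, 3351 and 2406 CPM in the 3 double-deficient pools. The means were 1675 ± 42.6 (SD) and 2832 ± 479 (SD), and the lowest double-deficient pool lay well above the highest control pool (log2 fold change 0.76 ± 0.09 SE, adjusted p = 0.00314). The calcium-binding nucleobindins went the other way. Nucb2 had 45.6, 44.8, 43.6 and 43.2 CPM in controls and 17.2, 21.9 and 14.5 CPM in double-deficient pools, 40.3% of control (log2 fold change -1.31 ± 0.17 SE, adjusted p = 0.00551). Nucb1 had 219, 244, 208 and 223 and 158, 136 and 137 CPM (log2 fold change -0.64, adjusted p = 0.00571).

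The other chaperones did not pass the adjusted threshold by edgeR, and their values also lay on both sides of control. DESeq2 called 6 of the list lower, with Dnajb9, Hyou1, Calu and, chosen after its values were seen, Mlec beside the nucleobindins, and 2 higher, with Hsp90b1 beside Hspa5. Here and below, DESeq2 calls of list members are at an adjusted p under 0.05 without the fold limit. Their share over all genes was not counted. The BiP co-chaperone Dnajb9 had 30.8, 27.4, 29.9 and 28.1 CPM in controls and 16.4, 11.7 and 17.04 CPM in double-deficient pools (log2 fold change -0.95, adjusted p = 0.0556). Hyou1, a large ER chaperone, had 113, 119.8, 115 and 106 and 76.3, 91.8 and 72.1 CPM (log2 fold change -0.50, adjusted p = 0.0614). Both had every double-deficient pool below every control pool. Hsp90b1, which encodes GRP94, lay above control in all 3 pools (899, 1036, 1007 and 1109 against 1414, 1796 and 1179 CPM, log2 fold change 0.53, adjusted p = 0.111). Manf, Calr and Canx, of which Manf and Canx were chosen after their values were seen, had log2 fold changes of 0.41, 0.26 and -0.05 (adjusted p = 0.275, 0.384 and 0.866). Over the 29 chaperones tested, 21 had a log2 fold change below 0 and the median was -0.17, yet the summed level of all 31 listed was 7163, 7731, 7253 and 7704 CPM in controls and 8625, 10320.1 and 7718 CPM in double-deficient pools.

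ER-associated degradation, which removes misfolded proteins, had no gene past the adjusted threshold by edgeR among 29 tested, with 5 lower and 3 higher at an unadjusted p under 0.05 and a median of -0.01. DESeq2 called 2 lower and 3 higher in the same list. Herpud1 had 562, 478, 539.6 and 527 CPM in controls and 648, 721 and 768 CPM in double-deficient pools (log2 fold change 0.44, adjusted p = 0.0736), and Sel1l 168, 162, 192 and 173 and 207, 253 and 226 CPM (0.39, adjusted p = 0.127). Edem2 was on the other side (101, 93.5, 97.7 and 107 and 74.4, 76.1 and 74.6 CPM, -0.41, adjusted p = 0.0556). None of the 3 overlapped between groups.

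**Figure D2:**
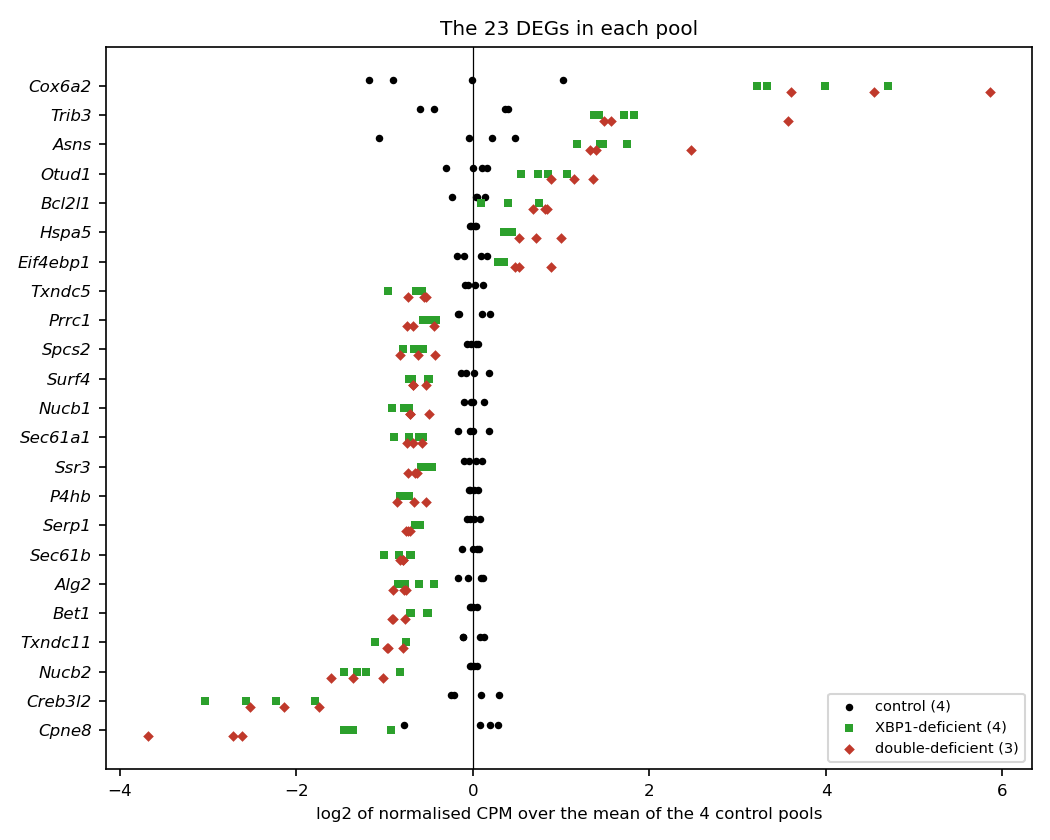
Each row is 1 of the 23 DEGs and each mark 1 pool, placed by the log2 of its normalised CPM over the mean of the 4 control pools. Black circles are the 4 control pools, green squares the 4 XBP1-deficient pools and red diamonds the 3 double-deficient pools. Red diamonds lie outside the range of the black circles in every row, and double-deficient replicate 2 stands apart for Trib3 and Asns.

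The calls differed in how far they rested on single pools. Leaving out each of the 7 pools in turn kept 10 of the 23, namely Serp1, Ssr3, Sec61b, P4hb, Nucb2, Nucb1, Txndc11, Bet1, Hspa5 and Otud1. Alg2 lost its call without any 1 pool other than control replicate 3 (adjusted p up to 0.0863), and Txndc5 without control replicate 2 or 4 or any double-deficient pool (up to 0.0844). Spcs2 lost it without control replicate 1 or 2 or double-deficient replicate 1 or 3 (up to 0.0693), Surf4 without control replicate 2 or double-deficient replicate 1 or 3, in part through the fold limit (up to 0.0622), and Sec61a1 without double-deficient replicate 1 or 3 (up to 0.0622). No DEG changed sign.

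Vesicle transport between ER and Golgi followed the same direction as protein import. Of 44 COPII and COPI genes tested, 5 were lower and none higher past the adjusted threshold, 41 had a log2 fold change below 0, and the median was -0.18. Bet1, a SNARE protein of ER-derived vesicles, had 24.8, 26.1, 24.96 and 25.4 CPM in controls and 13.5, 14.9 and 13.4 CPM in double-deficient pools (log2 fold change -0.86, adjusted p = 0.00551). The control pools differed by little and the 2 groups did not approach each other. Surf4, a receptor that loads soluble cargo into COPII vesicles, had 399, 446, 374 and 359.9 and 246, 272 and 246 CPM (log2 fold change -0.63, adjusted p = 0.01002). The other 3 were cargo receptors of the p24 family, namely Tmed2 (-0.55, adjusted p = 0.0154), Tmed10 (-0.42, adjusted p = 0.0173) and Tmed9 (-0.45, adjusted p = 0.0479). Uso1, Cope and Sec31a, a tether and 2 coat subunits, had log2 fold changes of -0.50, -0.40 and -0.37 and did not pass (adjusted p = 0.0519, 0.0556 and 0.102).

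Creb3l2 had the second lowest log2 fold change among the lower DEGs. It encodes a transcription factor held in the ER membrane that is released by cleavage and acts on secretory pathway genes, and lies at chr6:37327255-37442146 (mm10, minus strand). Its level was 8.65, 12.3, 10.7 and 8.48 CPM in controls and 3.01, 2.28 and 1.74 CPM in double-deficient pools, from 986 reads in the 4 control pools and 166 in the 3 double-deficient pools together. That was 23.4% of control (log2 fold change -2.10 ± 0.33 SE, adjusted p = 0.0134), and the adjusted p was 0.0569 to 0.073 without control replicate 2 or double-deficient replicate 2 or 3. Cpne8, of the copine family of calcium-dependent membrane-binding proteins, had the lowest log2 fold change. It was counted 54, 66, 51 and 26 times in control pools and 4, 7 and 7 times in double-deficient pools (log2 fold change -2.92 ± 0.51 SE, adjusted p = 0.0288). Leaving out any 1 pool other than control replicate 4 took its adjusted p to between 0.0584 and 0.104. Cpne8 was above 1 CPM in all 4 control pools, in XBP1-deficient replicate 4 and in no double-deficient pool. It passed the filter through the control pools, where it was high. Its place among the genes tested is thus tied to the difference, and with no filter its call was lost.

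The remaining lower genes had diverse roles. Slc39a7, the ZIP7 transporter that releases zinc from the ER, had 139.6, 139.7, 136 and 133 CPM in controls and 94.1, 92.9 and 94.1 CPM in double-deficient pools (log2 fold change -0.55, adjusted p = 0.00551). Snd1, an RNA-binding protein, had 296, 263, 253 and 253 and 192, 182 and 185 CPM (-0.52, adjusted p = 0.0396). Naaa, a lysosomal amidase that marks cDC1s, had 4173, 4109, 3926 and 4356 and 3415, 3257 and 3220.2 CPM (-0.33, adjusted p = 0.0396). The call of Naaa was lost in an edgeR fit of the 7 pools alone (adjusted p = 0.112). It was also lost with the melanoma markers or the maturation list as a covariate (0.117 and 0.225). Prrc1 had 56.7, 57.3, 73.02 and 68.8 and 47.1, 39.9 and 38.1 CPM (-0.62, adjusted p = 0.0454), and lost its call when any 1 of the 7 pools was left out.

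Of the 7 genes that rose, Hspa5 is described above, and 3 others are linked to the ATF4 response or to translation. Trib3, a pseudokinase induced by ATF4, had 3.56, 1.999, 3.48 and 1.79 CPM in controls, and 8.01, 32.2 and 7.61 CPM in double-deficient pools. Double-deficient replicate 2 stood far above the other two, and without it the log2 fold change was 1.53 instead of 2.55 (adjusted p = 0.0812 instead of 0.0396). Asns, asparagine synthetase, showed the same order of pools, with 7.25, 8.66, 10.4 and 3.57 CPM in controls and 18.7, 41.3 and 19.7 CPM in double-deficient pools (log2 fold change 1.83 ± 0.33 SE, adjusted p = 0.0396), and 1.36 without replicate 2 (adjusted p = 0.116). Each of the other pools but control replicate 3 also carried the call of Asns, as did each control pool that of Trib3 (adjusted p up to 0.123 and 0.137). Eif4ebp1, an inhibitor of cap-dependent translation, had 60.996, 64.2, 53.6 and 50.8 and 79.8, 106 and 82.3 CPM (log2 fold change 0.64, adjusted p = 0.0312), and 0.50 without replicate 2 (adjusted p = 0.0817), with the call also lost without control replicate 1, 3 or 4 or double-deficient replicate 3 (up to 0.0912).

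The PERK and ATF4 list as a whole lay above control. Of 39 genes tested, 2 (Trib3 and Asns) were higher and none lower past the adjusted threshold, 30 were higher at an unadjusted p under 0.05, 38 had a log2 fold change above 0, and the median was 0.47. DESeq2 called 15 of them higher without the fold limit, and the share of all genes at that level was not counted. The summed level of all 47 listed was 3716, 3335, 3263 and 2847 CPM in controls and 3979, 5225 and 4108 CPM in double-deficient pools, highest in replicate 2. Among genes that did not pass, the glycine transporter Slc6a9 had 2.08, 3.41, 4.56 and 0.759 CPM in controls and 11.3, 24.2 and 10.4 CPM in double-deficient pools (log2 fold change 2.49, adjusted p = 0.0556). Enzymes of mitochondrial one-carbon metabolism were next, Mthfd2 with 165, 149, 174 and 139 and 194, 269 and 256 CPM (0.61, adjusted p = 0.0505) and Shmt2 with 87.5, 90.4, 92.6 and 84.4 and 128, 182 and 111 CPM (0.66, adjusted p = 0.0563). Aars, alanyl-tRNA synthetase, had a log2 fold change of 0.71 (adjusted p = 0.0736).

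Ddit3, the stress-induced transcription factor CHOP, had 9.24, 8.07, 8.96 and 8.17 CPM in controls and 13.3, 21.1 and 12.3 CPM in double-deficient pools, again with replicate 2 highest (log2 fold change 0.85, adjusted p = 0.1002). Atf4 mRNA itself overlapped between groups (0.30, adjusted p = 0.319). Chac1, chosen after its values were seen, had 5.47, 5.41, 6.18 and 4.87 and 10.01, 10.4 and 13.7 CPM (1.05, adjusted p = 0.184).

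The other 3 genes that rose are of survival, ubiquitin and respiratory function. Bcl2l1, which encodes the anti-apoptotic protein Bcl-xL, had 54.2, 51.1, 50.4 and 41.9 CPM in controls and 88.5, 79.2 and 87.2 CPM in double-deficient pools (log2 fold change 0.78 ± 0.15 SE, adjusted p = 0.0479). The groups did not overlap, but leaving out any 1 of the 7 pools took the adjusted p to between 0.0817 and 0.134. Otud1, a deubiquitinase, had 12.1, 12.6, 11.3 and 9.11 and 20.8, 28.9 and 25.03 CPM (log2 fold change 1.14 ± 0.17 SE, adjusted p = 0.01002). Cox6a2, the muscle-type form of a cytochrome c oxidase subunit, was counted 4, 1, 2 and 1 times in control pools and 26, 104 and 45 times in double-deficient pools (fitted log2 fold change 4.89 ± 0.74 SE, adjusted p = 0.0105, and 0.0583 without control replicate 2). It passed the filter only through pools with Cre, where it was high, so its place among the genes tested is tied to the difference. With no filter the adjusted p was 0.0125, limma-voom and the replicate block gave 0.0586 and 0.0882, DESeq2 gave none, and it was not tested without double-deficient replicate 2 or 3. It is also listed as a marker of plasmacytoid dendritic cells, and the summed level of the 7 markers of those cells was 150.1, 120.4, 121 and 124 CPM in controls and 108, 112 and 139 CPM in double-deficient pools. Of the 6 markers tested, 4 had a log2 fold change below 0 and 2, Cox6a2 and Spib, above 0. Siglech and Ccr9 were the lowest, at -1.85 and -1.17 (adjusted p = 0.397 and 0.245, edgeR). Of 22 genes of the BCL2 family and death receptors, Bcl2l1 alone passed, with 7 higher at an unadjusted p under 0.05 and a median of 0.18. The p53 targets (17 tested, median 0.12) and the oxidative stress response (16 tested, median 0.08) had no gene past the adjusted threshold by edgeR, with 3 and 4 higher at an unadjusted p under 0.05 and 1 higher each by DESeq2.

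**Figure D3:**
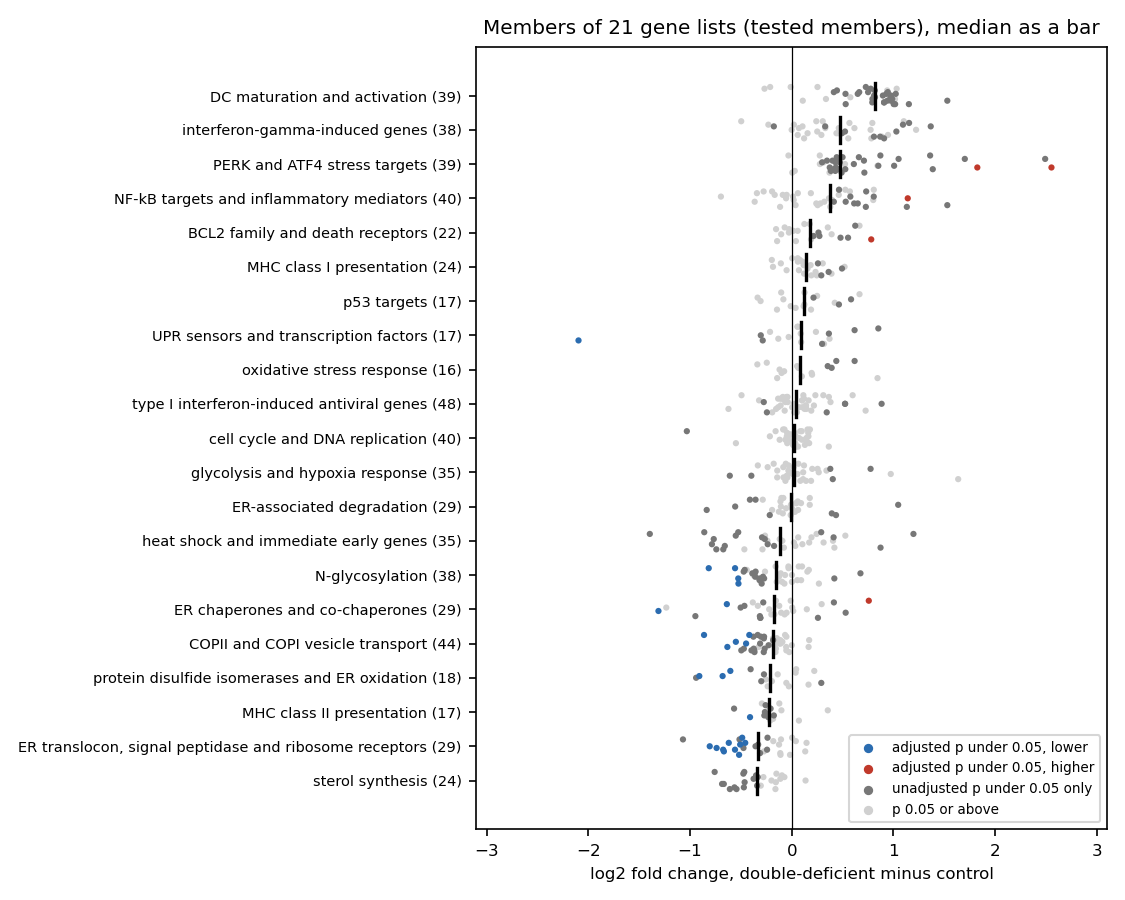
Each point is a gene of 1 of 21 lists, placed by its log2 fold change between double-deficient and control cDC1s, with the list's median as a black bar and the number of genes tested in parentheses. Blue and red mark genes past the adjusted threshold, dark grey genes with an unadjusted p under 0.05 alone. Medians run from -0.345 for sterol synthesis to 0.82 for dendritic cell maturation, and the translocon list holds more blue points than any other list, 10.

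Maturation genes of dendritic cells lay above control with a large spread between pools. Of 39 tested, none passed the adjusted threshold by edgeR, DESeq2 called 2 higher, 29 were higher at an unadjusted p under 0.05, and the median was 0.82. The summed level of all 43 listed was 9539, 6394, 10758 and 7059 CPM in controls and 11626, 10274 and 18585 CPM in double-deficient pools, so double-deficient replicate 2 lay within the control range and replicate 3 was highest. Fscn1, which bundles actin in mature dendritic cells, had 862, 504, 989.5 and 597 CPM in controls and 1213, 1040.5 and 2248 CPM in double-deficient pools (log2 fold change 1.02, adjusted p = 0.238). Ccl5, a chemokine that draws T cells, had 236, 154, 278 and 148 and 379.9, 336 and 1051 CPM (1.53, adjusted p = 0.185). Il12b, the p40 chain of interleukin 12, had 367, 333, 591 and 375 and 625, 580.02 and 1255 CPM (0.98, adjusted p = 0.197). Replicate 3 was highest for all 3 genes. Relb and Nfkb2, of the non-canonical NF-kB pathway, had log2 fold changes of 0.73 and 0.53 (adjusted p = 0.251 and 0.185). Chosen after their values were seen, the migration receptor Ccr7 had 1709, 933, 1839 and 1008 and 2199, 1644 and 3209 CPM (0.78, adjusted p = 0.346) and the costimulatory receptor Cd40 73.5, 53.9, 94.1 and 65.1 and 74.4, 106 and 112 CPM (0.44, adjusted p = 0.433), both with overlap.

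Of 40 NF-kB targets and inflammatory mediators, Otud1 alone passed, 12 were higher and none lower at an unadjusted p under 0.05, and the median was 0.37. Tnip1, an NF-kB inhibitor, had 39.97, 37.4, 50.1 and 37.7 and 53.4, 67.6 and 68.6 CPM (0.61, adjusted p = 0.1002). DESeq2 called 3 higher.

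The interferon programs were read as a type I and an interferon-γ list. Of 48 type I interferon-induced antiviral genes, none passed by edgeR or DESeq2, 2 were lower and 4 higher at an unadjusted p under 0.05, and the median of 0.05 was close to that of all genes. Ifi35 and Samd9l, with the smallest p on either side, had log2 fold changes of 0.34 and -0.27 (adjusted p = 0.296 and 0.304). The members Ifit1, Isg15, Mx1 and Irf7, chosen after their values were seen, overlapped between groups, with log2 fold changes of 0.31, 0.12, 0.02 and 0.02. Of 38 interferon-γ-induced genes, none passed by edgeR or DESeq2, but 10 were higher and 1 lower at an unadjusted p under 0.05 and the median was 0.48. Over the alternatives the median ran from 0.11 without double-deficient replicate 2 to 0.74 without replicate 1 for this list and from -0.09 to 0.15 for the type I list, and the difference between the lists was not tested. Irf1, the transcription factor of this response, had 245, 142, 274 and 191 CPM in controls and 271, 449 and 448 CPM in double-deficient pools (0.87, adjusted p = 0.238). The guanylate-binding protein genes Gbp8 and Gbp4 had 6.02, 4.998, 7.34 and 2.098 against 10.1, 10.99 and 18.5 CPM (1.37, adjusted p = 0.268) and 27.98, 9.63, 21.1 and 13.1 against 24.004, 40.3 and 50.7 CPM (1.09, adjusted p = 0.3102). Gbp genes are close copies of each other and reads can be shared between them. Nlrc5, an activator of MHC class I genes, had a log2 fold change of 0.49 (adjusted p = 0.313). Double-deficient replicate 1 overlapped the controls for Irf1 and Gbp4.

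MHC class I presentation had no gene past the threshold by edgeR or DESeq2 among 24 tested, with 4 higher at an unadjusted p under 0.05 and a median of 0.14. MHC class II presentation lay below control. Of 17 tested, 1 was lower past the adjusted threshold, 9 were lower and none higher at an unadjusted p under 0.05, and the median was -0.23. DESeq2 called 3 lower. The gene that passed was March1, a ubiquitin ligase that removes MHC class II from the surface, with 212, 208, 204 and 215 CPM in controls and 161, 150 and 162 CPM in double-deficient pools (log2 fold change -0.41, adjusted p = 0.0312). Its call was lost in a fit of the 7 pools alone (adjusted p = 0.0844) and with the maturation list or the melanoma markers as a covariate (0.149 and 0.1). The peptide exchange subunit H2-Oa had 140.01, 125, 127 and 130.4 and 96.4, 73.6 and 94.7 CPM (-0.57, adjusted p = 0.0736). The class II chains H2-Ab1 and H2-Eb1, whose reads related class II genes may share, had log2 fold changes of -0.26 and -0.24 (adjusted p = 0.1999 and 0.218). Summed over the list, the level was 85222, 80838, 77940.1 and 78889 CPM in controls and 76521, 60429 and 70167 CPM in double-deficient pools, without overlap.

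Sterol synthesis genes also lay below control. Of 24 tested, none passed the adjusted threshold by edgeR, 14 were lower and none higher at an unadjusted p under 0.05, 23 had a log2 fold change below 0, and the median was -0.345. DESeq2 called 7 lower. Among enzymes of the last steps to cholesterol, Sc5d had 129, 129, 118 and 119 CPM in controls and 71.8, 93.7 and 85.97 CPM in double-deficient pools (-0.56, adjusted p = 0.0673), and Dhcr7 had 30.4, 37.6, 23.7 and 29.1 and 16.9, 19.6 and 17.1 CPM (-0.76, adjusted p = 0.111). Both had non-overlapping groups. The summed level of all 25 listed was 4856, 4621, 4384 and 4297 CPM in controls and 3499, 3914 and 3772 CPM in double-deficient pools.

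The list of cytosolic heat shock genes and immediate early genes held differences in both directions, and immediate early genes lay on both sides of control. Of 35 tested, none passed by edgeR, 13 were lower and 4 higher at an unadjusted p under 0.05, and the median was -0.12. DESeq2 called 4 lower, namely Jun, Hspa1a, Hspa1b and Dnajb1, and 1 higher, the immediate early gene Egr3. By edgeR Egr3 had a log2 fold change of 0.87 (adjusted p = 0.192). Jun, an immediate early transcription factor, had 366, 377, 353 and 272 CPM in controls and 197, 236 and 163 CPM in double-deficient pools (-0.78, adjusted p = 0.111). The inducible HSP70 gene Hspa1a had 995, 846, 941 and 696 and 428, 664 and 346 CPM (-0.86, adjusted p = 0.149), and reads can be shared with its near-identical copy Hspa1b (-0.77, adjusted p = 0.173). The HSP40 gene Dnajb1 had 231, 224, 257 and 209 and 145, 195 and 139 CPM (-0.53, adjusted p = 0.155). Fos, chosen after its values were seen, overlapped between groups (-0.26). Egr1, likewise chosen, had 356, 178, 116 and 134 CPM in controls and 670.2, 384 and 294 CPM in double-deficient pools (1.20, adjusted p = 0.351). Such genes are known to respond to handling of cells during tissue dissociation, whose part in these values was not tested.

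**Figure D4:**
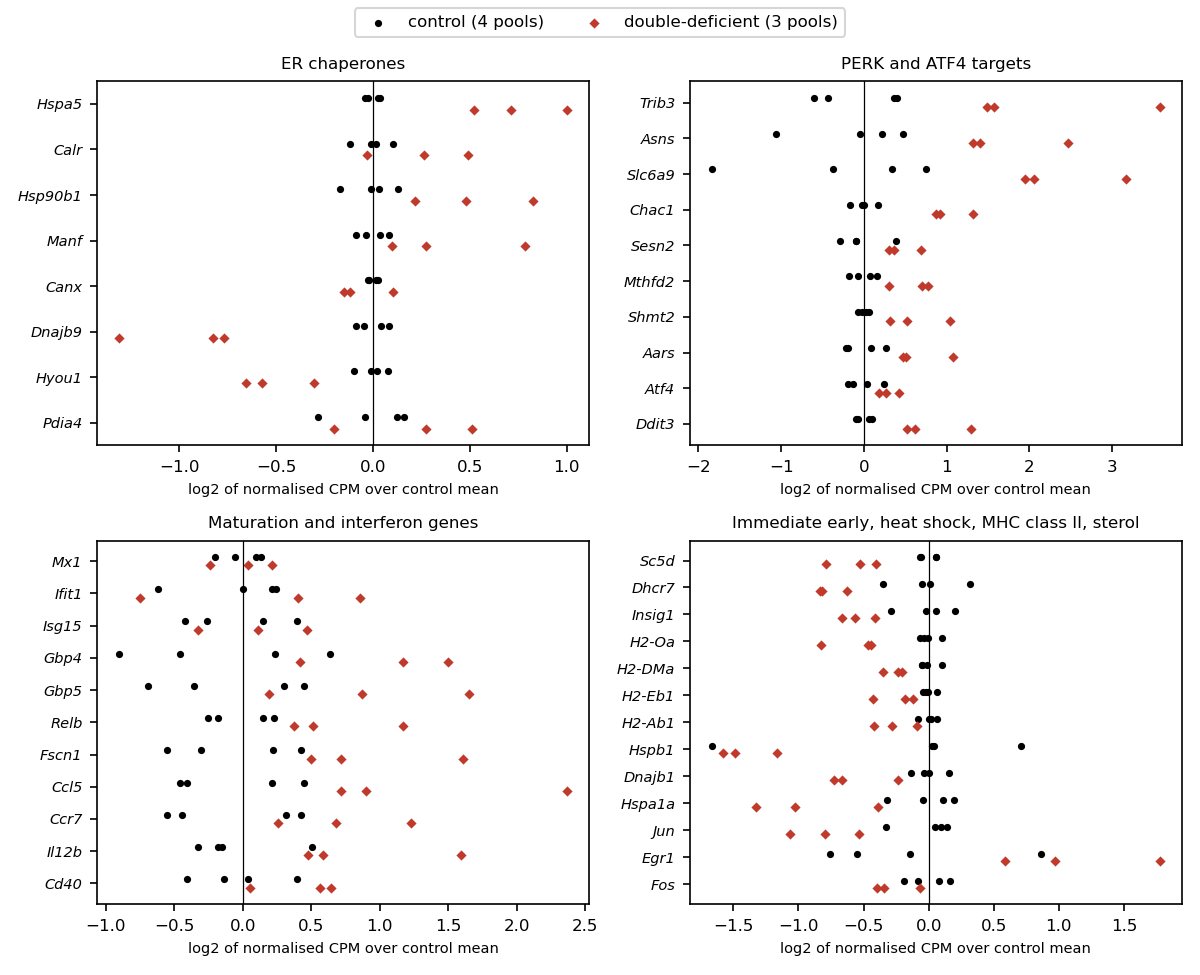
Marks show the log2 of normalised CPM in each pool over the mean of the 4 control pools, for genes of 4 groups. Black circles are the 4 control pools and red diamonds the 3 double-deficient pools, and some of them were picked once their values were known. Hspa5 lies above and Dnajb9 and Hyou1 below control in the chaperone panel, most double-deficient pools lie to the right of control for ATF4 targets, and Isg15, Ifit1 and Mx1 overlap.

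Glycolysis and hypoxia genes (35 tested, median 0.02) and cell cycle genes (40 tested, median 0.02) had no gene past the adjusted threshold by edgeR or DESeq2, with 2 lower and 3 higher and with 1 lower and none higher at an unadjusted p under 0.05. The lower cell cycle gene was Mki67, a marker of cycling cells, with 98.8, 144, 143 and 107 CPM in controls and 112, 18.03 and 50.02 CPM in double-deficient pools, which overlap. The UPR sensors and factors other than Creb3l2 (17 tested in all, median 0.09) did not pass by edgeR, and DESeq2 called Ddit3 higher (adjusted p = 0.00799).

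Gene lists that the study took from the literature for the 2 outputs of the IRE1 RNase were also read in this comparison. Of 60 XBP1s targets, 16 were lower past the adjusted threshold by edgeR, with a median of -0.31. DESeq2 called 28 lower. Of 78 RIDD targets tested, none passed by edgeR, 13 were lower and 4 higher at an unadjusted p under 0.05, and the median was -0.09. DESeq2 called 7 of the RIDD targets lower. The lists share members. Among the 7, Idi1, Mlec and Msmo1 are also on the XBP1s list, and Dhcr7, Idi1, Msmo1 and Nsdhl are on the sterol list. The other calls, Erp44 and Rpn1, are on the disulfide and glycosylation lists.

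Some large fold changes did not pass the adjusted threshold. Among genes with an unadjusted p under 0.01 and no overlap between groups, the largest on the lower side was Nav2 (2.29, 4.52, 2.82 and 2.63 CPM in controls and 0.8601, 0.839 and 0.348 CPM in double-deficient pools, log2 fold change -2.16, adjusted p = 0.143), followed by 4930426L09Rik, Csrnp2, Gm13710, Armcx2, Snhg17, D5Ertd605e, Ppapdc1b, Ccr9 and Tspan5, with log2 fold changes from -2.04 to -1.17. Ccr9, a gut-homing chemokine receptor that is also on the plasmacytoid marker list, had 16.7, 14.9, 14.02 and 17.5 and 7.66, 2.89 and 10.4 CPM (adjusted p = 0.245). On the higher side Pik3r3, a regulatory subunit of phosphoinositide 3-kinase, was counted 0, 10, 0 and 4 times in controls and 34, 28 and 73 times in double-deficient pools (fitted log2 fold change 3.73, adjusted p = 0.172). The water and glycerol channel Aqp9 was counted 2, 11, 12 and 0 times in controls and 40, 45 and 33 times in double-deficient pools (adjusted p = 0.171). Pik3r3 and Aqp9 passed the filter only through pools with Cre, where they were high. Their place among the genes tested is therefore tied to the difference, as for Cox6a2 and Cpne8. Slc6a9, Exd1, Cdk5r1, Scarf1, Tubb3, Ccl5, Ets1 and Insm1 made up the rest of the 10, with log2 fold changes from 1.42 to 2.49.

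The 23 DEGs were also read in the XBP1-deficient pools, which shared the controls, so the comparisons with control are not independent of each other. All 23 went in the same direction in XBP1-deficient against control cDC1s, and 15 of them were DEGs there too. The shares of all genes with the same direction and with a DEG call there were not counted, so nothing is read from either number. Tested directly, double-deficient against XBP1-deficient cDC1s differed in 8 DEGs (0.0731%) over all genes and in none of these 23 (smallest adjusted p 0.321, edgeR). At an unadjusted p under 0.05 there were 5 of the 23. The share of all genes at that level was not counted, so nothing is read from this number. Hspa5 had 2134, 2253, 2272 and 2173 CPM in the 4 XBP1-deficient pools, between the control and the double-deficient values (log2 difference to double-deficient 0.36). Cpne8 lay at 0.7699, 0.777, 0.727 and 1.05 CPM in XBP1-deficient pools (log2 difference -1.66, adjusted p = 0.551), Bcl2l1 at 52.6, 82.8, 52.8 and 65.2 CPM (0.42, adjusted p = 0.781), and Eif4ebp1 at 69.7, 73.4, 73.1 and 71.6 CPM (0.31, adjusted p = 0.787). Bet1 was the fifth (-0.26, adjusted p = 0.931). For Sec61b the difference was 0.00 and for Creb3l2 0.23, where XBP1-deficient pools had 1.22, 1.69, 2.14 and 2.91 CPM. A p that missed the threshold does not show equal levels.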

How the data were processed

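RNA was measured in pools of tumor cDC1s. Per the labels and the study's methods, the authors trimmed reads with Trimmomatic (0.39), aligned them to mm10 with STAR (2.7.3a) and counted them per gene with HTSeqCount, and deposited raw counts per gene, used here. The strand setting of the counting is not given in the sources used here, so genes that overlap a gene on the other strand (among the DEGs Cox6a2, Cpne8, Nucb1, Prrc1, Sec61a1, Serp1, Spcs2, Surf4, Txndc11 and Txndc5) may hold its reads. The deposited normalized table was not used. Genes above 1 CPM in at least 4 of 11 pools were tested with edgeR (4.0.16), TMM scaling and a quasi-likelihood fit of the 3 genotypes over all 11 pools, without a replicate block. Levels in the text are TMM-normalised CPM. Coordinates are from GENCODE for mm10, which matched 10559 of the genes tested. All 21 function lists, 2 literature lists of the study and 10 marker lists were described by counts and medians. The members of the comparison and the gene lists were chosen with earlier results of these data known. Named genes were the DEGs, other genes with the smallest adjusted p, up to 4 further members per list by smallest p, and the 10 lower and 10 higher genes with the largest fold change among those with an unadjusted p under 0.01, no overlap and no DEG call, and some genes that this rule named are not reported here. Alternatives used DESeq2 (1.42.0), limma-voom (limma 3.58.1), other scalings, filters and covariates, and each pool left out. The test was checked on simulated counts.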

Additional observations from a re-analysis of the deposited data

Results flagged for a closer look

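In 50 groups of 4 pools (23 DEGs, Xbp1 and Ern1 in control and in XBP1-deficient pools), 2 had a pool far from the others by Dixon's test at the 95% level, which chance gives in about 1 of 20 groups. XBP1-deficient replicate 4 had 1.05 CPM of Cpne8, where the 4 XBP1-deficient pools had 0.7699, 0.777, 0.727 and 1.05 CPM. XBP1-deficient replicate 2 had 33.4 CPM of Txndc11, where the same 4 pools had 26.1, 33.4, 26.1 and 26.2 CPM. In the comparison of double-deficient with control cDC1s, this group entered the filter on low levels and the estimate of spread.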

How the results depend on the processing

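Against 23 DEGs (16 lower, 7 higher), DESeq2 gave 95 (43 lower, 52 higher), the 7 pools of the comparison alone 15 (12 lower, 3 higher), and a covariate of the summed Y-linked level 51 (25 lower, 26 higher). These counts keep the fold limit, unlike the DESeq2 counts of list members given above. Limma-voom gave 20 (16 lower, 4 higher). Without the fold change limit there were 39 genes, 32 of them lower. Covariates chosen after seeing the data gave 7 DEGs (5 lower, 2 higher) with the maturation list, 61 (21 lower, 40 higher) with the heat shock list and 27 (24 lower, 3 higher) with the melanoma markers. Same-numbered control and double-deficient pools did not deviate together (correlation -0.0204 to 0.027), so the numbers were not taken as pairs, and a fit with the replicate block gave 11 DEGs (9 lower, 2 higher). Leaving out 1 pool gave 12 to 23 DEGs, 9 to 20 lower and 3 to 6 higher, with the fewest, 12, without control replicate 2. Other settings of the edgeR fit, the other scalings and the other filters gave 24 to 27 DEGs. The calls of Serp1, Ssr3, Sec61b, P4hb and Hspa5 held under all 22 alternatives at an unchanged fold limit, and 18 others were lost under at least 1, with no change of sign. The median of the maturation list ran from 0.05 with its own level as a covariate to 1.02, that of the NF-kB list from -0.05 to 0.47 and that of the interferon-γ list from 0.11 to 0.74. The cause of these differences was not tested. Among the DEGs, counts limit Cox6a2 and Cpne8 most.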
